A study of Mus musculus with 4 samples.

Results

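The genes described here build, move, dock and fuse the secretory granules of mast cells. They are 40 named genes for Rab GTPases, SNARE proteins, Munc13 and Munc18 proteins, synaptotagmins and the complexes that make granules. They were chosen by name, and each had at least 1 probe set assigned to its symbol alone, out of 22180 genes with such a probe set. All came from BALB/c mice, and each of the 4 groups was a single Affymetrix array. The control was a culture of mast cells raised from bone marrow (BMMCs) in 10 ng/ml interleukin-3 and 10 ng/ml stem cell factor over 3 to 4 weeks, followed by 6 days in plain medium. A second culture received TGF-beta1 at 5 ng/ml for those 6 days. The third was kept for 6 days on Chinese hamster ovary (CHO) cells made to express mouse Dll1, a ligand of Notch receptors, and was then selected for c-Kit with magnetic beads. The last group was mucosal mast cells of the small intestinal lamina propria of naive mice, which were isolated by flow cytometry on FceRI and c-Kit. The labels name no selection step for the other 2 cultures and do not say how many mice or cultures went into an array. With 1 array per group no value has a replicate error, no test was possible and no p-value is given.

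Mast cells store histamine, proteases and proteoglycans in granules that belong to the lysosome-related organelles, and release them when IgE receptors are crosslinked. Granules are carried along the cytoskeleton and docked by Rab GTPases and their effectors, primed by Munc13 proteins, and fused when a SNARE of the VAMP family on the granule pairs with a syntaxin and a SNAP-25 relative on the target membrane. Munc18 proteins hold and guide the syntaxins, synaptotagmins sense calcium, and NSF with its adaptor takes spent SNARE complexes apart. AP-3, the BLOC complexes and Lyst sort and size the granules as they form, and mutations of many of these genes cause inherited disorders of pigment, platelets or killer cells.

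Levels are log2 signals, so that a difference of 1 is 2-fold, and they are set side by side only within a gene. A background limit was placed on each array between 5.11 and 5.21, the 95th percentile of 1443 probe sets for chemosensory receptors (smell, pheromone and taste). Values under the limit were set to it. A gene then counted as higher or lower when 1 or both of the arrays compared exceeded the limit and the difference came to 2-fold or more. As a gauge of the spread between probe sets of the same gene, their log2 differences had a standard deviation of 0.24 for TGF-beta1 against control, 0.34 for Dll1 against control and 0.48 for intestinal against control cells. The probe sets of a gene were read on the same arrays, so that gauge holds no variation between repeated arrays, cultures or animals.

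The arrays differed in more than their labels. Mast cell markers were above the limit for all 13 measured genes on the intestinal array, with a summed linear signal of 29638 against 32802 to 40404 in the cultures. The intestinal minus control difference (log2) was -0.90 for Kit, the stem cell factor receptor, -0.74 for the IgE receptor chain Fcer1a and -0.87 for the chain Ms4a2. Kit and Fcer1a lay near the top of the scale, where differences can be compressed. On the intestinal array, 13 of 19 epithelial markers (summed signal 2266, against 632 to 760 in the cultures), 10 of 11 T and innate lymphoid markers (6169, against 2604 to 5427) and 11 of 13 macrophage and dendritic cell markers (4476, against 1107 to 1310) were above the limit. The B and plasma cell markers reached 5 of 7 (355, against 206 to 216), and 18 of 18 immediate early and heat shock genes were above the limit (37034, against 2362 to 12555). Epcam, Krt19, Vil1, Chga, Cldn7, Phgr1, C1qc, Mrc1, Klrb1c, Ms4a1 and Tnfrsf17 were not above it there. Basophil markers summed to 11132 in intestinal cells and 13002 to 14751 in the cultures, with 6 of 7 above the limit. On the Dll1 array, 6 of 8 eosinophil markers (4356, against 237 to 490 on the other arrays), 13 of 14 neutrophil and promyelocyte markers (2486, against 495 to 795) and 13 of 16 adherent cell markers (2105, against 816 to 2613) were above the limit, while Siglecf, Il5ra, Retnlg, Col1a2, Cav1 and Tagln were not. Neuronal and endocrine markers, listed because such cells use much of this machinery, summed to 369 in intestinal cells and 382 to 404 in the cultures. Chga and Snap25 were below the limit on all 4 arrays. The part of other cells and of handling in the differences below was not tested, except where a value is given, and in bulk RNA fewer mast cells and less RNA per mast cell cannot be told apart.

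Most of the machinery was detected in every preparation. Above the limit were 38 of the 40 genes on the control array, 37 after TGF-beta1, 38 after Dll1 and 38 in intestinal cells. Of all 22180 genes, 11670, 11254, 12331 and 12139 were above it in the same order. Syt3 was below it on all 4 arrays, between 4.71 and 4.84, and Sytl4 was above it in intestinal cells alone (5.22, against 4.85 to 4.93). The pairs were read as intestinal cells against each culture, each treated culture against control, and Dll1 against TGF-beta1. In that direction no member was at least 2-fold higher in any of the 6 pairs of arrays, where 0.507% to 4.47% of tested genes were. At least 2-fold lower in at least 1 pair were 9 members. Of all tested genes, 0.89% to 6.74% were lower in a single pair, and the share lower in at least 1 pair was not counted. Without regard to direction, the measured values ranged over at least 1 across the arrays for 9 of 39 members (23.1%). The share was 16.3% of the 13328 genes above the limit on at least 1 array.

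In intestinal against control cells, 7 of 39 tested members were at least 2-fold lower, a share of 17.9%, and none was higher, where 6.74% of 12722 tested genes were lower and 4.47% were higher. The 7 were Mlph, Myo5a, Stxbp3, Rab3a, Stxbp2, Snap23 and Unc13b. The median difference over the 40 members was -0.45, against 0.00 over all genes. Against TGF-beta1-treated cells, 7 of 39 were lower (background 4.56% lower and 4.06% higher), with a median of -0.26 against -0.01. Against Dll1-cocultured cells, 3 of 39 were lower (background 4.14% lower and 3.56% higher), with a median of -0.21 against -0.03. The 3 comparisons share the intestinal array. The member medians in all 3 were closer to 0 than the 3 receptor genes. Relative to the median difference of Kit, Fcer1a and Ms4a2, a setting chosen after the data were seen, Mlph alone was still 2-fold lower against control, Mlph and Nsf against TGF-beta1, and none against Dll1, while 4, 4 and 3 members were then 2-fold higher, and the member median became 0.42 against control. In these comparisons that setting moves every gene up by the same amount. The share of all genes called under it was not computed, so these counts are no result particular to the members.

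The cultures differed less among themselves. With TGF-beta1 against control, no member of 38 tested was higher or lower (background 0.507% higher and 0.89% lower), and the median was -0.15 against 0.01 over all genes. With Dll1 against control, Mlph was the 1 of 38 that was lower (2.63%), where 1.78% of tested genes were lower and 1.64% higher. The median there was -0.15 against 0.02 over all genes. With array medians subtracted, 3 of 38 (Mlph, Unc13d and Sytl2) were lower against 2.48% of genes, and with an offset of 16 subtracted from the linear signals 4 of 38, these and Unc13b, against 3.08%. Of all genes called, 47.9% were higher with Dll1, or 35.6% once array medians were subtracted. Between Dll1 and TGF-beta1, none of 38 was higher or lower (background 2.19% higher and 1.9% lower), with a median of -0.04 against 0.02.

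**Figure D1:**
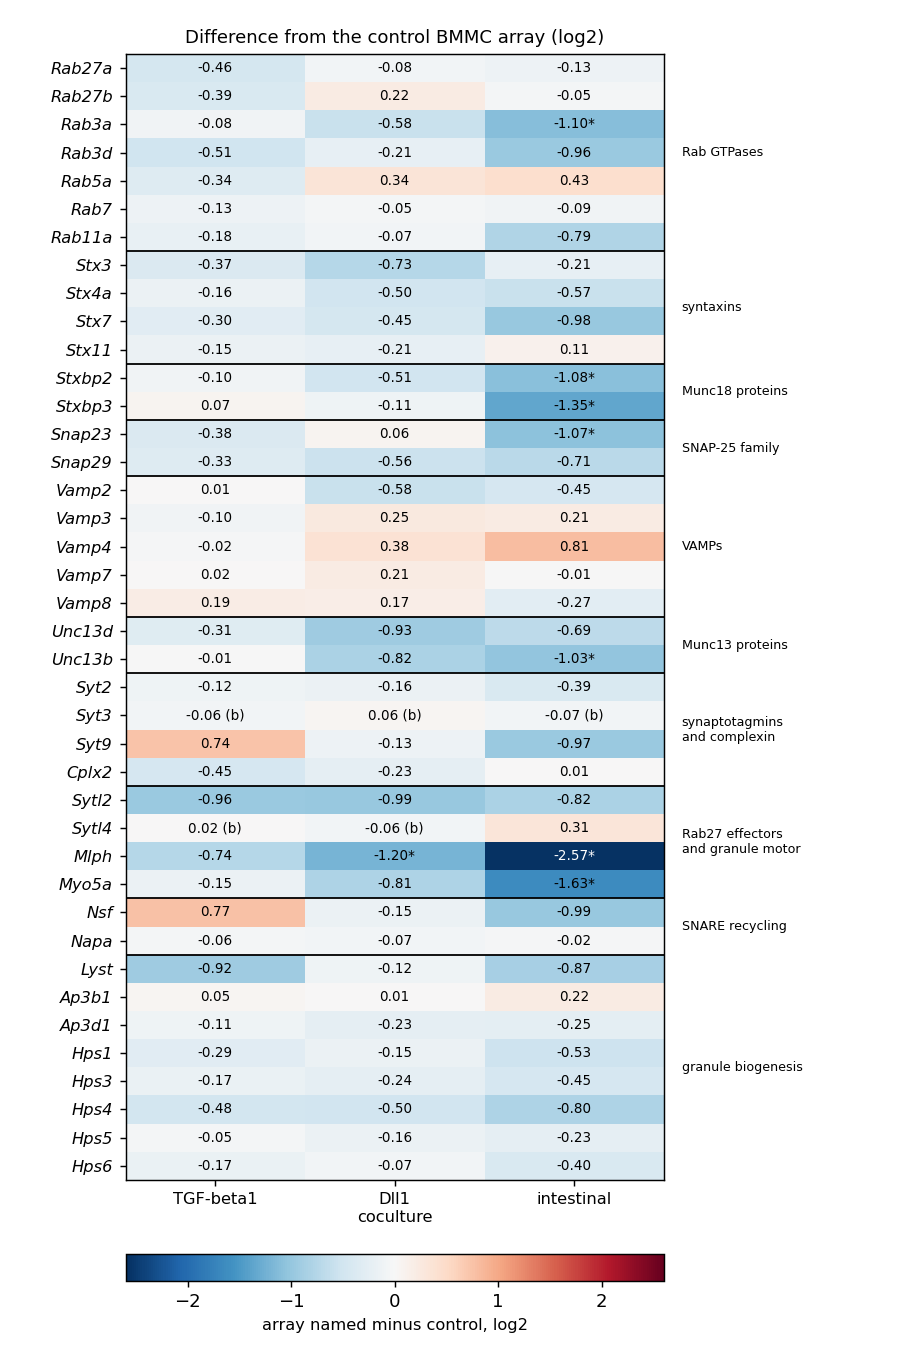
Difference of each of the 40 members from the control BMMC array, in log2, for the TGF-beta1, Dll1 and intestinal arrays (1 array each), grouped by role. An asterisk marks a difference of at least 2-fold, and (b) marks a gene below the background limit on both arrays. The 7 marked cells of the intestinal column include Mlph at -2.57 and Myo5a at -1.63, and the Dll1 column has 1 marked cell, Mlph at -1.20.

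Across the 4 arrays, the members leaned toward the control array as their highest point. Of the 39 members above the limit on at least 1 array, 24 (61.5%) were highest in control cells, against 26.0% of 13328 genes selected in the same way. The intestinal array held the lowest value for 23 of them (59.0%), against 33.1% of genes. For 13 members (33.3%, against 9.45% of genes) the order was control, TGF-beta1, Dll1 and intestinal from high to low. For many of them the steps were smaller than the spread between probe sets. Only Ap3b1, at 8.87 in control cells and 9.09 in intestinal cells, was lowest in the control. Of the 39, 15 ranged over less than 0.5 across the 4 arrays (38.5%, against 50.1% of genes).

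In the Rab27 pathway, the GTPases varied less over the arrays than their partners Mlph, Myo5a, Sytl2 and Unc13d. Rab27a and Rab27b, GTPases that sit on granules and govern their transport and docking, stayed within 0.61 over the 4 arrays. Rab27a read 7.33 in control cells, 6.87 after TGF-beta1, 7.25 after Dll1 and 7.19 in intestinal cells. Rab27b read 9.43, 9.05, 9.65 and 9.38 in the same order. Both were lowest with TGF-beta1, and the intestinal values lay within 0.13 of control.

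Mlph encodes melanophilin, the adaptor that joins Rab27a to the actin motor myosin Va. It read 8.53 in control cells, 7.79 after TGF-beta1, 7.33 after Dll1 and 5.96 in intestinal cells. Each step down this order was separate from the next by at least 0.46. Mlph was 5.92-fold lower in intestinal than in control cells, 3.55-fold lower than with TGF-beta1 and 2.58-fold lower than with Dll1, and 2.30-fold lower with Dll1 than in control. It was the only member past 2-fold within the cultures. A range of at least 1 over the BMMC arrays held for 1 of 39 members (2.56%), against 5.99% of 13328 genes. Under 9 other settings of the processing Mlph lay between -2.93 and -2.53 for intestinal minus control and between -1.29 and -1.15 for Dll1 minus control. Relative to the receptor genes its intestinal difference was -1.70 against control, -1.14 against TGF-beta1 and -0.64 against Dll1.

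Myo5a, the myosin Va heavy chain and the dilute coat colour gene, followed the same order. It read 7.51 in control cells, 7.36 after TGF-beta1, 6.70 after Dll1 and 5.88 in intestinal cells. The control and TGF-beta1 values differed by 0.15, less than the spread between probe sets, and the TGF-beta1 and Dll1 values by -0.66. Myo5a was 3.10-fold lower in intestinal than in control cells and 2.80-fold lower than with TGF-beta1, and its difference of -0.82 from the Dll1 array did not reach 2-fold. Relative to the receptor genes the first was -0.77 and no longer past 2-fold.

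The synaptotagmin-like proteins are other Rab27 effectors, which tether granules to the plasma membrane. Sytl2 read 7.18 in control cells, 6.22 after TGF-beta1, 6.19 after Dll1 and 6.36 in intestinal cells. It stood apart in that the control array was high and the other 3 lay within 0.17 of each other, with differences from control of -0.96, -0.99 and -0.82 that all fell short of 2-fold. Sytl4, known as granuphilin, was under the limit in the 3 cultures and at 5.22, just above it, in intestinal cells.

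The promoters of the 7 members that were 2-fold lower in intestinal than in control cells, and of Vamp4 and Rab5a, which had the largest positive differences, are shown because they are where a shared control element would first be sought. Promoter windows for 34 of the 40 members were found in the RefSeq table of GRCm38.p6, 41 windows in all, and the 250 bases before each annotated start were searched on both strands for 4 motifs of 6 bases. The first was the E-box CACGTG, which is bound by MITF and its TFE relatives and reads the same on both strands. The second was TGGGAA, the core of sites for RBPJ, through which Notch acts. The others were AGATAA, a site of GATA factors, and the SMAD element CAGACA, and none of the 4 contains another. The 9 windows printed read 5′ to 3′ on the strand of the gene, for Rab3a and Vamp4 the first of 2, and capitals mark matches to any of the 4 motifs.
Mlph (chr1:90914850-90915099, plus strand): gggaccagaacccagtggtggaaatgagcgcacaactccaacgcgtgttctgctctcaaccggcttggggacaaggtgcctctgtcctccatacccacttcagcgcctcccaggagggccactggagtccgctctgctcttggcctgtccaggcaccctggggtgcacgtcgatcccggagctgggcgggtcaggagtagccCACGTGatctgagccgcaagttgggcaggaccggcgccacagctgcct
Myo5a (chr9:75070956-75071205, plus strand): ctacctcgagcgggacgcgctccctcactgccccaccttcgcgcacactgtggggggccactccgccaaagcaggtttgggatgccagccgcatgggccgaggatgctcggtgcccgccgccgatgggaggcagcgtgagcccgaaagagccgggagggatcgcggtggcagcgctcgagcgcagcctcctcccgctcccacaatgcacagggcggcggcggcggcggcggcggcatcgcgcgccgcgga
Stxbp3 (chr3:108840503-108840752, minus strand): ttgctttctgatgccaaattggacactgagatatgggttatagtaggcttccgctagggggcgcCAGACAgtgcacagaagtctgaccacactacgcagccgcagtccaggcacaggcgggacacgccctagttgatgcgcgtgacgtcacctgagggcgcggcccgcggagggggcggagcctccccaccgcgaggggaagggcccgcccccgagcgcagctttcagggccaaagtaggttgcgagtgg
Rab3a (chr8:70754453-70754702, plus strand): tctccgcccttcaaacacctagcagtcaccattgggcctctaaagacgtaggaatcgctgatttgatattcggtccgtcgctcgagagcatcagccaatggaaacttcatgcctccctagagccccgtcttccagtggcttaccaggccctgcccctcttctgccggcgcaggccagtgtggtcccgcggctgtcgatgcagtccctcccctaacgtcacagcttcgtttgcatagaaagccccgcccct
Stxbp2 (chr8:3630859-3631108, plus strand): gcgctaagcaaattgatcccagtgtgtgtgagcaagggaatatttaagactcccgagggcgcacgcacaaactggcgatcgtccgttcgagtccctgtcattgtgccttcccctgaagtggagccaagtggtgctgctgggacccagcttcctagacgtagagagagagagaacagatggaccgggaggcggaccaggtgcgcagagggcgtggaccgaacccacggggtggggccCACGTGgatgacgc
Snap23 (chr2:120567421-120567670, plus strand): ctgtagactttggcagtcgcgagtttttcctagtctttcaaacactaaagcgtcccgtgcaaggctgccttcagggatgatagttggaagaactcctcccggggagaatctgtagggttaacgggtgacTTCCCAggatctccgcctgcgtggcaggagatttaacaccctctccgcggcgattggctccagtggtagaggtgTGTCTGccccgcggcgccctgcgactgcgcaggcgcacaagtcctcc
Unc13b (chr4:43058703-43058952, plus strand): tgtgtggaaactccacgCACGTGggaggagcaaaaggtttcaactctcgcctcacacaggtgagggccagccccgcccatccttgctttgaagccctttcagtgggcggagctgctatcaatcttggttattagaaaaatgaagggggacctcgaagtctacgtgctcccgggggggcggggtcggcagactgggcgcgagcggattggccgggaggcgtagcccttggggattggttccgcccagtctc
Vamp4 (chr1:162570265-162570514, plus strand): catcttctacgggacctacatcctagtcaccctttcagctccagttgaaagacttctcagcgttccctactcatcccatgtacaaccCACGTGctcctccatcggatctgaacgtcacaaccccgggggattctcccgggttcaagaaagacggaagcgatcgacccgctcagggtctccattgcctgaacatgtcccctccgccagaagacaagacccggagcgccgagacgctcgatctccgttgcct
Rab5a (chr17:53478984-53479233, plus strand): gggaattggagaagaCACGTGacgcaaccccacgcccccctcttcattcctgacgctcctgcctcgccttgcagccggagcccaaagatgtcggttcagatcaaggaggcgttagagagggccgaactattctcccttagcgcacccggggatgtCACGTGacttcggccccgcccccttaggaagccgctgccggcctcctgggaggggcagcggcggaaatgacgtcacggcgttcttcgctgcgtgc
The E-box CACGTG was found in windows of 10 members, in 10 of 41 windows against 6.02% of 32851 windows of the same length. Among them were Mlph, Stxbp2, Unc13b and Nsf, which were 2-fold lower in intestinal cells in at least 1 comparison, but also Rab5a and Vamp4, the members with the largest positive intestinal differences from control, and Rab27a, Napa, Hps3 and Hps5, which did not reach 2-fold in any pair. Of the 7 members 2-fold lower against control, Mlph, Stxbp2 and Unc13b had CACGTG and the other 4 did not. In Mlph the match began 48 bases before the start, and in Stxbp2 14 bases before it. Stxbp3 had CAGACA, Snap23 had TGGGAA and CAGACA, each on the opposite strand, and Myo5a and both windows of Rab3a had no match to any of the 4 motifs. TGGGAA was found for 5 members (21.6% of all windows), CAGACA for 6 (17.1%) and AGATAA for Ap3d1 alone (9.99%). The member windows were richer in G and C, with a median of 62.8% against 52.4% over all windows. CACGTG contains a CpG, and the part of base composition in its share was not tested. A match is only a match of letters, not a measured binding site.

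**Figure D2:**
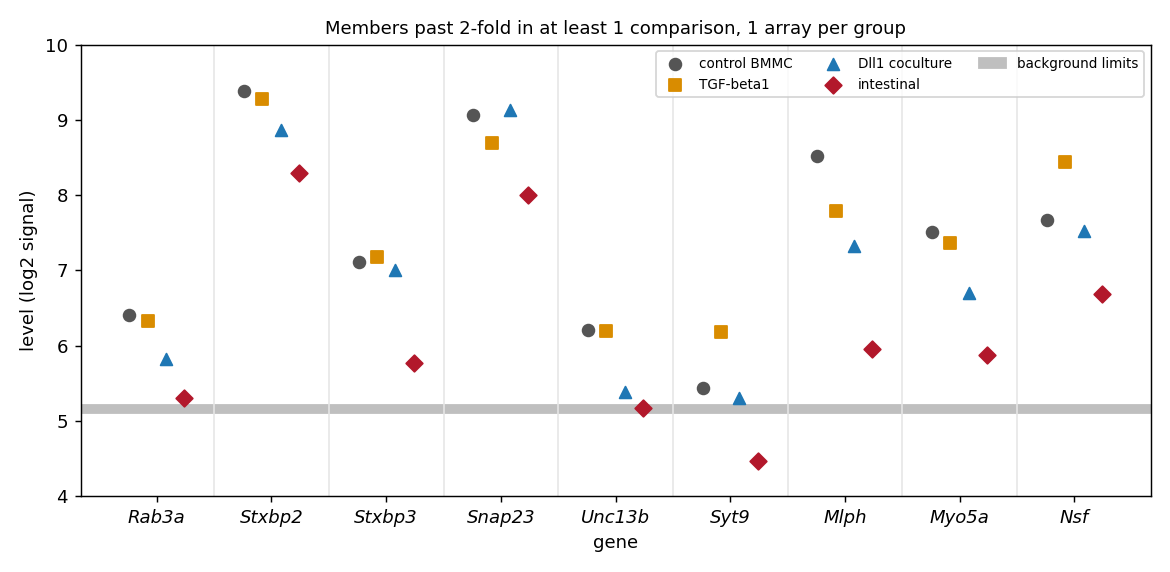
Log2 level on each of the 4 arrays for the 9 members that differed by at least 2-fold in at least 1 comparison, with 1 point per array and the range of the 4 background limits as a grey band. The intestinal point is the lowest for all 9, and for Unc13b and Syt9 it lies in or under the band.

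Among the remaining Rab GTPases, Rab3a, a regulator of calcium-triggered exocytosis best known from synapses, read 6.41 in control cells, 6.33 after TGF-beta1, 5.83 after Dll1 and 5.31 in intestinal cells. It was 2.15-fold lower in intestinal than in control cells and 2.03-fold lower than with TGF-beta1, and its intestinal value lay just above the limit. With the limit at the 99th percentile of the receptor probe sets, both differences fell short of 2-fold (-0.49 and -0.40). Rab3d, the related GTPase of zymogen and mast cell granules, read 7.80, 7.29, 7.59 and 6.84, a difference of -0.96 between intestinal and control cells. A second probe set of Rab3d read 5.71, 5.73, 5.95 and 5.62 and had a difference of -0.09 there, so the 2 probe sets did not show the same change.

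Rab11a of recycling endosomes read 8.36, 8.17, 8.29 and 7.57, with the intestinal array below the 3 cultures. Rab5a of early endosomes ran the other way, at 6.94, 6.60, 7.28 and 7.36. Rab7, the late endosomal GTPase, stayed between 11.48 and 11.61. None of the 3 reached 2-fold in any pair, which for so few genes is near the share of all genes.

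Of the SNARE proteins on the target membrane, Snap23, the SNAP-25 relative that mast cells use in degranulation, read 9.07 in control cells, 8.69 after TGF-beta1, 9.13 after Dll1 and 7.999 in intestinal cells. The intestinal array was below all 3 cultures, by 2.10-fold against control and 2.19-fold against Dll1, while the difference of -0.69 from TGF-beta1 did not reach 2-fold. Snap29, found on internal membranes, read 7.68, 7.35, 7.12 and 6.98 without a 2-fold difference.

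The 4 syntaxins did not move past 2-fold in any pair of arrays. A lack of calls among so few genes is near the share of all genes. In intestinal against control cells, 6.74% of tested genes were lower and 4.47% higher. Stx4a, the plasma membrane syntaxin of mast cell exocytosis, read 8.09 in control cells, 7.93 after TGF-beta1, 7.59 after Dll1 and 7.52 in intestinal cells. Stx3, another syntaxin of regulated secretion, read 7.11, 6.74, 6.37 and 6.89, lowest with Dll1. Stx11, which killer lymphocytes need for granule release, read 5.76, 5.60, 5.55 and 5.87 and varied by 0.32 in all. Stx7 of late endosomes read 8.38, 8.08, 7.93 and 7.39, and its intestinal difference from control of -0.98 was just under 2-fold.

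The granule-side SNAREs varied little, apart from Vamp4. Vamp8, the main VAMP of mast cell degranulation, read 10.34 in control cells, 10.54 after TGF-beta1, 10.51 after Dll1 and 10.07 in intestinal cells. Vamp7, a SNARE of lysosomes and secretory granules, read 8.06, 8.08, 8.27 and 8.05, a range of 0.21. Vamp3 of recycling endosomes stayed between 6.98 and 7.34 and Vamp2 between 6.73 and 7.32. No difference of these 4 genes passed 0.6 in size. Vamp4, a SNARE of the trans-Golgi network, read 5.29, 5.27, 5.67 and 6.10, which was not a 2-fold difference in any pair, and its 2 lowest values lay close to the background limit.

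Both Munc18 genes were lower in intestinal cells. Stxbp3, which encodes the partner of Stx4a, read 7.11 in control cells, 7.18 after TGF-beta1, 7.01 after Dll1 and 5.77 in intestinal cells. The 3 cultures lay within 0.18 of each other, and the intestinal array was 2.54-fold below control, 2.67-fold below TGF-beta1 and 2.36-fold below Dll1. Stxbp2, which binds Stx3 and Stx11 and is mutated in a familial form of hemophagocytic lymphohistiocytosis, read 9.38, 9.28, 8.87 and 8.30. It was 2.11-fold lower in intestinal than in control cells and just short of 2-fold against TGF-beta1 (-0.98). Relative to the receptor genes, the intestinal differences from control were -0.48 for Stxbp3 and -0.21 for Stxbp2.

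Both Munc13 genes read higher on the control and TGF-beta1 arrays than on the Dll1 and intestinal arrays. Unc13d, the Rab27 effector that primes granules in mast cells and killer lymphocytes, read 7.37 in control cells, 7.06 after TGF-beta1, 6.44 after Dll1 and 6.68 in intestinal cells. Its lowest value was with Dll1, where the difference from control of -0.93 was just under 2-fold. The intestinal minus TGF-beta1 difference of Unc13d was -0.38, less than the spread between probe sets for that pair (0.43). Unc13b read 6.20, 6.19, 5.39 and 5.17. Its intestinal value lay close to the limit and was 2.04-fold below control and 2.02-fold below TGF-beta1, calls that were lost with the limit at the 99th percentile (-0.28 and -0.27).

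The calcium sensors and complexin were dim. Syt9 read 5.44 in control cells, 6.19 after TGF-beta1, 5.31 after Dll1 and 4.47 in intestinal cells, where it was below the limit. It was at least 2.10-fold lower there than with TGF-beta1, a call that was lost with the limit at the 99th percentile (-0.26), and the TGF-beta1 array was 0.74 above control, short of 2-fold. Syt2, a synaptotagmin that mast cells carry on granules, read 5.64, 5.52, 5.48 and 5.25. Cplx2, which encodes a complexin that binds assembled SNAREs, read 5.42, 4.97, 5.19 and 5.43, with the TGF-beta1 value below the limit. At these levels the arrays compress differences, and small changes of these genes could not be seen.

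Of the recycling machinery, Nsf, the ATPase that disassembles SNARE complexes, read 7.67 in control cells, 8.44 after TGF-beta1, 7.52 after Dll1 and 6.68 in intestinal cells. The TGF-beta1 array stood highest and the intestinal array lowest, 3.37-fold apart. Relative to the receptor genes that difference was -1.06 and still past 2-fold. The control value lay between them, 0.77 below TGF-beta1 and 0.99 above intestinal cells, neither of which reached 2-fold. Napa, the adaptor alpha-SNAP that brings Nsf to SNAREs, stayed between 7.01 and 7.08.

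**Figure D3:**
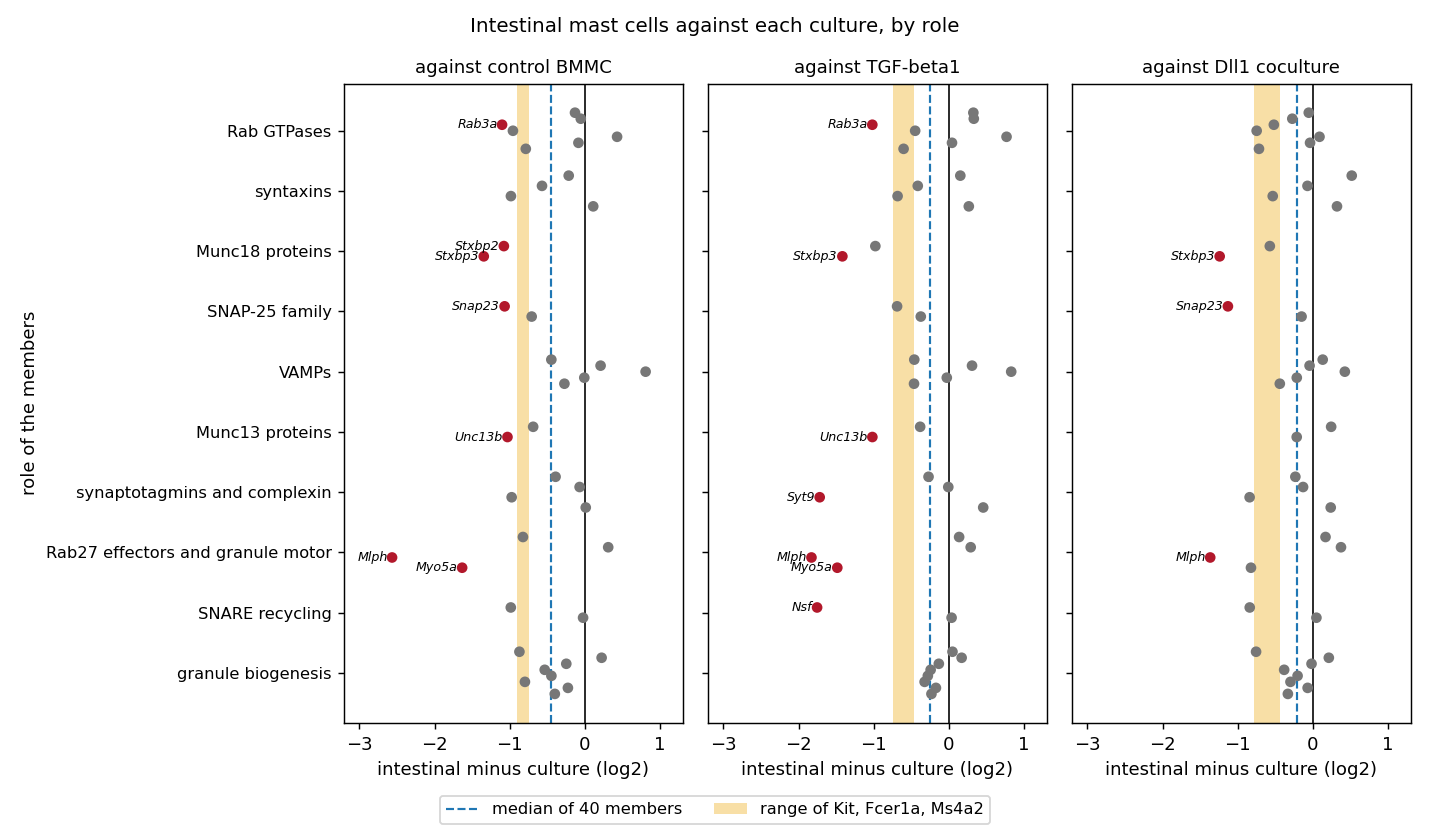
Intestinal minus culture difference (log2) of each of the 40 members, by role, against the control, TGF-beta1 and Dll1 arrays. Each point is a gene, red and named where it was at least 2-fold lower. The dashed line is the median of the members (-0.45, -0.26 and -0.21) and the yellow band spans the differences of Kit, Fcer1a and Ms4a2, which lie to the left of that line in all 3 panels.

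None of the 8 genes of granule biogenesis reached 2-fold in any pair of arrays. For so few genes this is near the share of all genes. In intestinal against control cells, the pair with the most calls, 6.74% of tested genes were lower and 4.47% higher. Lyst, the Chediak-Higashi (beige) gene that limits the size of lysosome-related organelles, varied most, at 8.12 in control cells, 7.20 after TGF-beta1, 8.003 after Dll1 and 7.25 in intestinal cells. The control and Dll1 arrays were the high ones and the TGF-beta1 and intestinal arrays the low ones. The AP-3 adaptor subunits Ap3b1 and Ap3d1, the pearl and mocha genes, ranged over 0.22 and 0.25.

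The BLOC-3 subunits Hps1 and Hps4 differed between intestinal and control cells by -0.53 and -0.80. A second probe set of Hps1 differed by 0.00. The BLOC-2 subunits Hps3, Hps5 and Hps6 differed by -0.45, -0.23 and -0.40. For all 5 genes the control array was highest and the intestinal array lowest, and among the 8 biogenesis genes Ap3b1 was the 1 above control in intestinal cells.

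The wider exocytosis machinery, 128 measured genes of a list of 134 that leaves out the members, was put through the same rule. In intestinal against control cells, 9 were lower among 105 tested (8.57%, where 6.74% of all genes were lower) and 1 was higher (0.952%, against 4.47%), with a median of -0.12. Of 24 tested other Rab GTPases, 4 were lower (16.7%). Rab38, which like its relative Rab32 serves lysosome-related organelles such as melanosomes, read 10.67 in control cells, 10.52 after TGF-beta1, 10.39 after Dll1 and 8.21 in intestinal cells, 5.51-fold below control. Rab5b was 2.64-fold, Rab44, a large Rab of mast cells, 2.59-fold and Rab1b 2.03-fold lower.

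Of 20 tested other SNAREs, 2 (10%) were lower in intestinal than in control cells, where 6.74% of all genes were lower. They were Snap47 (2.17-fold) and Vamp1 (2.16-fold). Vamp1, a synaptic type of VAMP, read 6.65 in control cells, 6.49 after TGF-beta1, 4.98 after Dll1 and 5.54 in intestinal cells. On the Dll1 array it was below the limit, at least 2.86-fold lower than in control cells and at least 2.57-fold lower than with TGF-beta1, and it was the 1 gene of the wider list past 2-fold within the cultures. With Dll1 against control that was 1 of 104 tested genes (0.962%), where 1.78% of all tested genes were lower. Stxbp5, or tomosyn, an inhibitor that occupies syntaxins, was 2.46-fold lower in intestinal than in control cells, the synaptotagmin-like gene Sytl1 2.15-fold and Vps39 of the HOPS tethering complex 2.24-fold. Myo7a, an unconventional myosin counted with the Rab27 effectors, was the 1 gene higher, at 6.33 in intestinal cells against 5.12 to 5.32 in the cultures.

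Against TGF-beta1, 4 of 104 genes of the wider list were lower in intestinal cells (3.85%, where 4.56% of all genes were lower) and Myo7a was higher. Against Dll1, 4 of 105 were lower (3.81%, against 4.14%), among them Ap3s2 (2.24-fold) and Vipas39 (2.03-fold), and Myo7a was higher. Neither share of lower genes exceeded that of all genes. The 9 tested exocyst subunits, which tether vesicles to the plasma membrane, had no 2-fold difference in any comparison, and their intestinal median against control was -0.20. For so few genes the absence of calls is near the share of all genes (6.74% lower and 4.47% higher in intestinal against control cells).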

How the data were processed

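The values analysed are the log2 signals that the authors deposited, from 4.13 to 13.14 for 33793 probe sets. Per the labels' protocols, 2 ng of RNA was amplified into biotinylated cDNA. How probes were summarised and scaled, and the build, is not given in the sources used here. Once sorted, the values of the 4 arrays spanned 0.06 on average, so they shared a scale before deposit, and no normalization was added. Precision is limited by the number of arrays.

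Symbols came from the platform annotation: 23521 probe sets had 1 symbol, 1814 had several and 8458 were not listed. For the 1082 genes with over 1 probe set, the one with the highest mean was used, as for Rab3d and Hps1. All 22180 genes went through the 2-fold rule. A run on simulated data, with planted changes larger than 2-fold and added noise, only checked that the rule finds such changes. It held no variation between cultures or animals, so it gives no rate of false calls for these arrays. Values on all arrays are given for members called in any comparison and for 12 fixed by name, and also for Sytl2, Rab3d, Rab11a, Rab5a, Snap29, Stx7, Vamp4 and Lyst, singled out after their values were seen. They are given for up to 4 called genes of each pathway list. The members and lists were chosen with earlier results of these data known. Whether close paralogs share probes was not tested. Python 3.11.15 with pandas 2.3.3 was used.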

Additional observations from a re-analysis of the deposited data

How the results depend on the processing

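The 9 other settings chosen at the start were other scalings (array medians subtracted, quantile normalization), other background limits (99th or 90th percentile, none), averaged probe sets per gene, probe sets with several symbols added, an offset of 16 subtracted and 1.5-fold in place of 2-fold. The 18 member calls kept their direction in all of these, and 157 of 162 stayed past the threshold. The other 5, for Rab3a and Unc13b in intestinal cells against control and TGF-beta1 and for Syt9 against TGF-beta1, were lost with the 99th percentile, which left 4 members lower against TGF-beta1 in place of 7. Most of the 9 settings could not lose a call, so the 157 kept calls say little about stability. The 90th percentile, no limit, the offset and 1.5-fold can only keep or widen a called difference. Every called member had 1 probe set, so averaged or added probe sets left its values unchanged. Calls could be lost only with the other scalings and the 99th percentile. With array medians subtracted, 3 members were lower with Dll1 against control in place of 1.

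With the offset, 1 member (Syt9) was higher and 1 (Sytl2) lower with TGF-beta1 against control, 4 were lower with Dll1 against control and 2 with Dll1 against TGF-beta1, and 1 (Vamp4) was higher in intestinal cells against control and 1 against TGF-beta1. Of all genes, 820 of 12722 and 705 of 12551 were higher in those last comparisons. Lower in intestinal cells were 10 members against control (9.27% of genes), 8 against TGF-beta1 (6.57%) and 4 against Dll1 (6.05%). All-gene counts then went from 61 higher and 107 lower to 110 and 184 for TGF-beta1, from 209 and 227 to 360 and 393 for Dll1, and from 277 and 240 to 431 and 403 for Dll1 against TGF-beta1. At 1.5-fold, 2 members were higher and 3 lower with TGF-beta1 (4.01% of genes lower), 6 lower with Dll1 (7.47%), 1 higher and 16 lower in intestinal cells against control (14.9%), 2 higher and 11 lower against TGF-beta1 (11.5%), 8 lower against Dll1 (10.7%), and 3 higher and 6 lower with Dll1 against TGF-beta1 (7.21%). All-gene counts at 1.5-fold were 303 higher and 482 lower, 628 and 953, 1314 and 1890, 1144 and 1440, 1287 and 1391, and 795 and 912, in that order.

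Relative to Kit, Fcer1a and Ms4a2, chosen after seeing the data, 4 of 18 calls stayed. In intestinal cells, 1 member was lower and 4 (Rab5a, Vamp3, Vamp4 and Ap3b1) higher against control, with a median of 0.42, 2 were lower and 4 higher against TGF-beta1, with 0.43, and 0 were lower and 3 higher against Dll1, with 0.52. This follows from the construction, since the receptor genes differed by more than the member medians. The share of all genes called under this setting was not computed, so its counts are no result particular to the members. No paired analysis was possible because each group has 1 array and the groups share only replicate number 1. Leaving out a replicate was not possible either.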
